A study of Mus musculus with 14 samples.

Results

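The Msx and Dlx genes are homeobox genes that encode DNA-binding proteins of developing limbs, teeth, face, skin and genital tissue. The 8 members described here are Msx1, Msx2 and Dlx1 to Dlx6, out of 55228 genes in the count tables. They were chosen by gene name with no measured value in the rule, although earlier results of these data were known. RNA was sequenced from the epithelium of the lower urinary tract of wild-type, untreated CD-1 mouse embryos, an outbred stock, to find which genes mark the bladder and which the urethra. Each library came from the pooled female embryos of a litter. Bladder and urethral libraries of a stage may share litters, and the main tests treated them as unpaired. There were 3 libraries of bladder epithelium and 3 of urethral epithelium at E18.5 (E, embryonic day), and 4 of bladder and 4 of urethra at E14.5. The epithelium had been pulled from the mesenchyme with forceps after trypsin, so each library is a bulk measure of whatever cells remained on the sheet. A change in a bulk library can come from fewer cells that use a gene or from less RNA per cell, and these cannot be told apart here. Stage goes with litter and with the deposited table, so differences between stages and between those sources cannot be told apart.

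Msx proteins mostly repress transcription, whereas Dlx proteins mostly activate it, and proteins of the 2 families can bind each other and similar DNA sites. Bone morphogenetic proteins (BMPs) induce Msx genes in many embryonic tissues. Dlx genes lie in the genome as neighbouring pairs that point towards each other and share enhancers, and Dlx5 and Dlx6 act in the outgrowth of the genital tubercle and urethral plate in mice. Dlx3 is a regulator of stratifying epithelium such as skin.

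The homeobox encodes the DNA-binding part of each protein, and the stretch around its recognition helix is given for Msx2, Dlx3 and Dlx5, which the results turn on, to show how alike the genes are where they bind DNA. It was read from the GENCODE M21 transcripts on GRCm38, 5′ to 3′ on the coding strand. Capitals mark the codons for the tryptophan, phenylalanine, glutamine and asparagine of the helix that enters the major groove.
Msx2 (chr13:53468376-53468417, minus strand): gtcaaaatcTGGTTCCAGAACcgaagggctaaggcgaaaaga
Dlx3 (chr11:95123409-95123450, plus strand): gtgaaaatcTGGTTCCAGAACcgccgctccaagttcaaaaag
Dlx5 (chr6:6878447-6878488, minus strand): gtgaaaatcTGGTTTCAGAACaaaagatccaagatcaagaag
Dlx3 and Dlx5 shared 34 of these 42 bases, Msx2 and Dlx3 shared 31, and Msx2 and Dlx5 shared 29. Over the whole homeobox of 180 bases, any 2 Dlx genes were 66.1% to 81.7% identical, and Msx2 with a Dlx 54.4% to 64.4%. The homeobox lay in 1 exon in both Msx genes and was split over 2 exons in all 6 Dlx genes. The longest run of identical bases between the transcripts of any 2 members was 44, shorter than the 100-base reads.

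The genes lie at 5 places in GRCm38. Msx1 is on chromosome 5 (37820485 to 37824583, minus strand) and Msx2 on chromosome 13 (53466884 to 53473074, minus strand). Dlx1 and Dlx2 are 9426 bases apart on chromosome 2, Dlx3 and Dlx4 are 15150 bases apart on chromosome 11, and Dlx6 and Dlx5 are 9236 bases apart on chromosome 6. Noncoding genes run across some of them on the opposite strand. Dlx1as shares 335 exonic bases with Dlx1 (6.21% of its 5396), Dlx6os2 shares 104 with Dlx6 (4.38%) and Dlx4os shares 79 with Dlx4 (2.42%). Dlx6os1, also known as Evf2, spans Dlx6 and shares no exonic base with it. The strand setting of the counting is not given in the sources used here, so reads in the shared bases could belong to either gene. Dlx1as had 1 count in all 14 libraries together, in a urethral library at E18.5.

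Library totals ran from 21.1 to 36.8 M counts, and 21966 to 24258 genes had at least 1 count. Pan-epithelial genes were present in every group: the summed level of 7 pan-epithelial genes was 2650 to 3410 CPM (counts scaled to a common library size) in E18.5 bladder, 3570 to 4170 in E18.5 urethra, 4010 to 4640 in E14.5 bladder and 1660 to 3660 in E14.5 urethra. Mesenchymal RNA was uneven. The sum of 14 mesenchyme genes was 21400 to 33200 CPM in E18.5 bladder, 4900 to 6060 in E18.5 urethra, 1020 to 4690 in E14.5 bladder and 2470 to 6690 in E14.5 urethra. Bladder replicate 2 at E18.5 stood apart from the other 2 in neural and duct markers, given beside the genes concerned. Urethral replicate 1 at E14.5 stood apart from the other 3 in epithelial genes, with sums of 3660 CPM for the pan-epithelial list (1660 to 2220 in the other 3), 2100 CPM for 7 urothelial genes (407 to 707) and 5070 CPM for 8 basal and squamous genes (810 to 2100).

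Msx2 was the most abundant member per kilobase of transcript in every library, and the urethra had the broader mix of members. Msx2 made up 79.3% to 93.6% of the summed CPM per kilobase of the 8 genes in E18.5 bladder and 63.7% to 67.8% in E18.5 urethra. At E14.5 its share was 78.9% to 94.8% in bladder and 36.4% to 56.3% in urethra. Dlx3 was 2.65% to 3.61% of the sum in E18.5 bladder and 19.6% to 20.3% in E18.5 urethra, and 3.46% to 15.9% in E14.5 bladder and 26.4% to 32.9% in E14.5 urethra. The median summed level of the family was 21.4 CPM per kilobase in E18.5 bladder, 17.1 in E18.5 urethra, 43.3 in E14.5 bladder and 31.1 in E14.5 urethra. Dlx1, Dlx2, Dlx4 and Dlx6 together made up no more than 7.75% of the sum in any library.

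**Figure D1:**
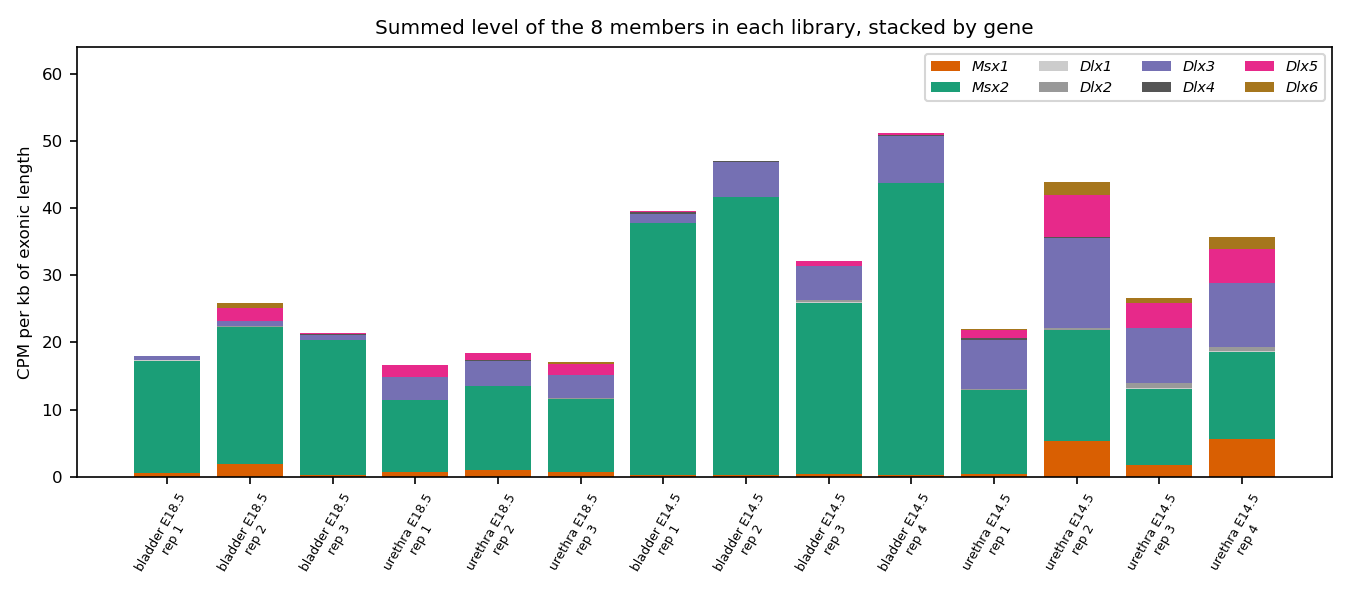
Summed level of the 8 members in each of the 14 libraries, in CPM per kilobase of exonic length, as bars stacked by gene. Msx2 fills most of each bladder bar, and Dlx3, Dlx5 and, in 3 of the 4 E14.5 urethral libraries, Msx1 take visible parts of the urethral bars.

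Between tissues, Msx2 was the member that was higher in bladder and the others that passed were higher in urethra. At E18.5, 4 of the 8 members had enough counts to be tested, and 1 was higher and 1 lower in bladder at an adjusted p under 0.05 (edgeR's quasi-likelihood test, Benjamini-Hochberg over all genes). Of all 17513 genes tested at E18.5, 19.3% were higher and 18.6% lower, 37.9% in all. A count over so few members is not a result about the family beside that background. At E14.5, 6 members were tested, with 1 higher and 3 lower in bladder, where 23.1% of 16697 genes were higher and 20.9% lower, 44% in all. With stage, no member rose in either tissue, by edgeR, at an unadjusted p under 0.05 (0 members) or by DESeq2 (0 members). Of 8 tested, 2 members fell in bladder and 2 in urethra. Over 18286 genes, 19.9% rose and 20.4% fell in bladder (40.3% in all), and 17.3% rose and 15.7% fell in urethra (33% in all). The tissue difference itself changed with stage for 2 of the 8 members, 1 in each direction, against 22.9% of genes (12.2% and 10.7%). Leaving out single libraries moved the number of members that fell in urethra between 0 and 4, so that count rests on few libraries.

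**Figure D2:**
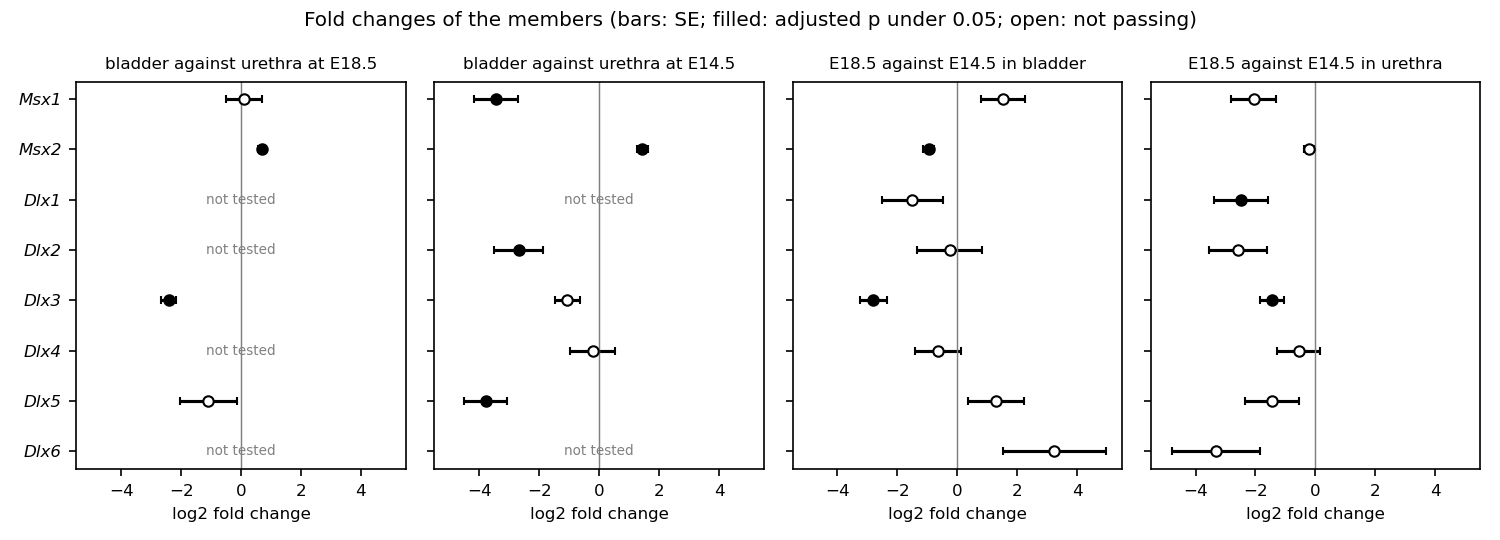
Log2 fold changes of the members with their standard errors in 4 comparisons, with tissue at each stage and with stage in each tissue. Filled points passed the adjusted p of 0.05; Msx2 lies right of 0 in both tissue comparisons, and Dlx3 lies left of 0 in all 4, with an open point for tissue at E14.5.

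Msx2, a repressor known from skull, skin and mammary development, was higher in bladder at both stages and fell in bladder by E18.5. Its level was 55.1, 67.3 and 65.7 CPM in the E18.5 bladder libraries, against 35.0, 41.1 and 35.7 CPM in the E18.5 urethral libraries. At E14.5 it was 123, 136, 83.4 and 142 CPM in bladder, against 40.6, 54.2, 36.6 and 42.7 CPM in urethra. Every bladder library stood above every urethral library of its stage, and every E18.5 bladder library stood below every E14.5 bladder library. Not overlapping in this way was common: 51.1% of tested genes did so between tissues at E18.5, 40.5% at E14.5, and 46.2% between stages in bladder. The order of the groups was E14.5 bladder, E18.5 bladder, E14.5 urethra and E18.5 urethra, and the 2 urethral groups overlapped.

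The log2 fold change of Msx2 in bladder against urethra was 0.69 ± 0.12 (SE) at E18.5 (adjusted p = 0.00278) and 1.44 ± 0.18 at E14.5 (adjusted p = 0.000755). In bladder it fell by 0.95 ± 0.18 log2 units at E18.5 against E14.5 (adjusted p = 0.000981), while in urethra the fold change was -0.22 ± 0.17 (adjusted p = 0.352, edgeR). The tissue difference was smaller at E18.5 by a log2 value of -0.73 ± 0.24 (adjusted p = 0.0482). That last call was lost in 12 of 14 fits that left out 1 library (adjusted p up to 0.116), and the direction turned (0.65, adjusted p = 0.0968) when libraries were scaled on 7 pan-epithelial genes. Of those 7 genes, 5 were themselves called higher and 0 lower in E14.5 bladder against urethra, with a median log2 fold change of 0.95. In bladder 3 of the 7 fell with stage and 0 rose. These calls themselves used the scaling of the main fits, so they cannot tell which scaling is nearer the level per epithelial cell. Under the pan-epithelial scaling, which moved the median of all genes to -1.02 at E14.5, the E14.5 tissue call was lost (0.45, adjusted p = 0.133), as was the fall in bladder (-0.41, adjusted p = 0.206, with the median of all genes at 0.53). The E18.5 tissue value became 1.1 (adjusted p = 0.000312), with the median of all genes at 0.39. Mesenchymal RNA was also higher in E18.5 than in E14.5 bladder, and with the mesenchyme score as covariate the fall in bladder was not called (-0.12, adjusted p = 0.908).

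Msx1, the close relative of Msx2 that acts in tooth and palate growth, had the opposite tissue pattern at E14.5. Its level was 1.52, 5.67 and 0.984 CPM in E18.5 bladder, against 2.22, 3.11 and 1.98 CPM in E18.5 urethra. At E14.5 it was 0.744, 0.683, 1.43 and 0.975 CPM in bladder, against 1.36, 16.5, 5.54 and 17.2 CPM in urethra. Urethral replicate 1 at E14.5, the library with the most epithelial marker RNA of its group, was at the bladder level, and the other 3 were well above it. It was also the lowest of its group for Dlx5, Dlx6 and Dlx6os1, and the part of cell content in this was not tested. At E18.5 the tissues overlapped, with bladder replicate 2 the highest of the 6 libraries.

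At E14.5, Msx1 was lower in bladder by a log2 fold change of -3.45 ± 0.74 (adjusted p = 0.00669), and of -3.81 (adjusted p = 0.000442) without urethral replicate 1. At E18.5 the value was 0.10 ± 0.59 (adjusted p = 0.910), and without bladder replicate 2 it was -0.99 (adjusted p = 0.105). E18.5 against E14.5 gave 1.53 ± 0.74 in bladder (adjusted p = 0.119) and -2.06 ± 0.76 in urethra (adjusted p = 0.0526), and without urethral replicate 1 of E14.5 the urethral value was -2.42 (adjusted p = 0.00691). The tissue difference changed with stage by 3.59 ± 1.06 (adjusted p = 0.0279). This call was lost in 7 of 14 fits without 1 library, with adjusted p of 0.0538 and 0.05 without bladder replicates 2 and 4 of E14.5, 0.0562 and 0.0575 without urethral replicates 2 and 4 of E14.5, 0.106 without bladder replicate 2 of E18.5 (value 2.43), and 0.0687 and 0.0631 without urethral replicates 1 and 3 of E18.5. The Msx1 change with stage also did not pass with the replicate number as a block (2.77, adjusted p = 0.0753). Msx2 per kilobase was 11.2 to 63.1 times Msx1 in E18.5 bladder and 12.5 to 17.0 times in E18.5 urethra, and 55.2 to 188 times in E14.5 bladder and 2.34 to 28.1 times in E14.5 urethra.

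**Figure D3:**
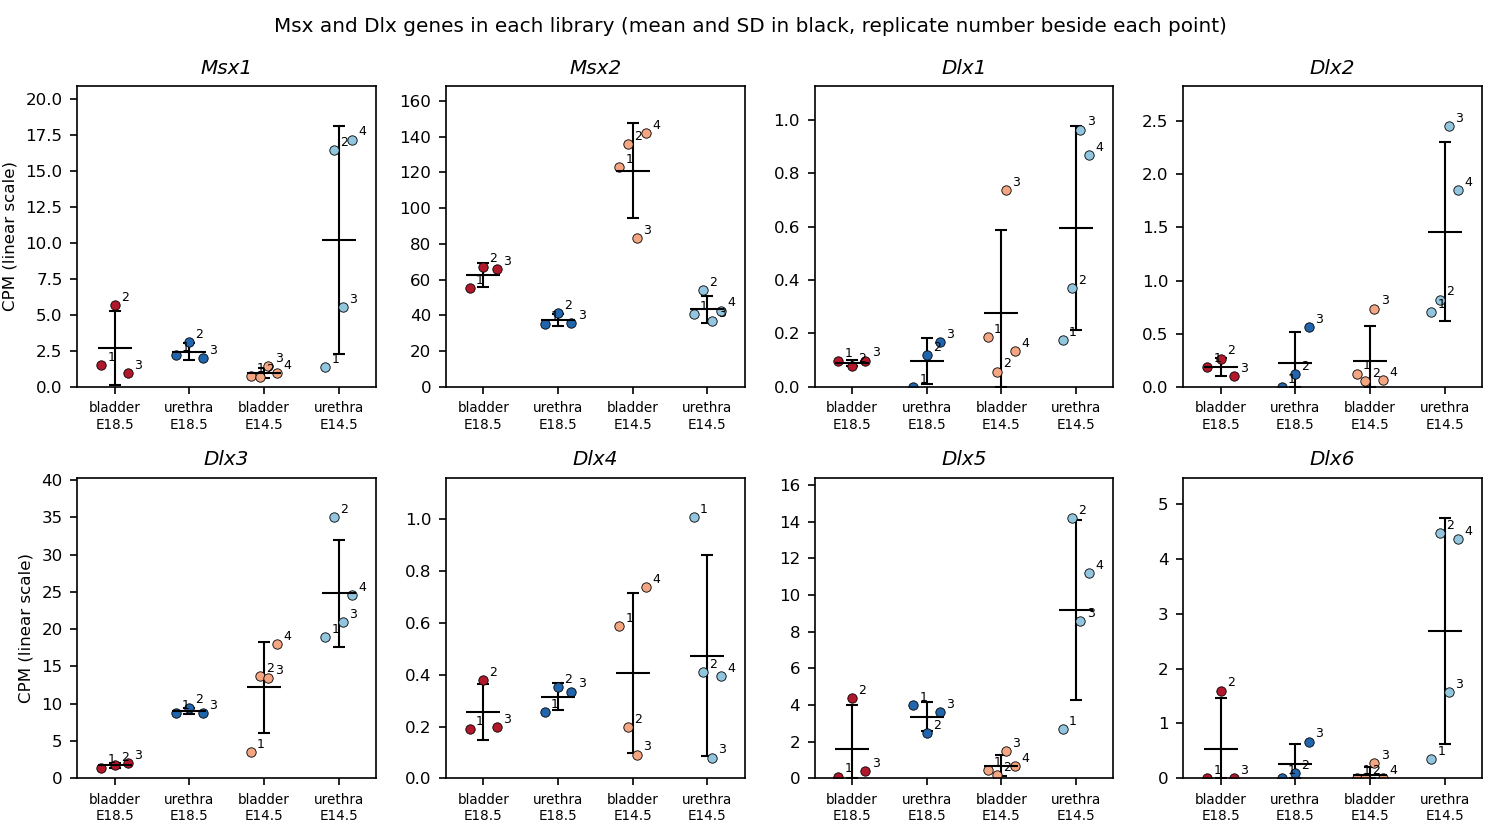
Level of each member in CPM (linear axes that differ between genes) in the 14 libraries, grouped as E18.5 bladder, E18.5 urethra, E14.5 bladder and E14.5 urethra, with means and SD, the lower bars stopping at 0. Msx2 is highest in E14.5 bladder, whereas Msx1, Dlx2, Dlx3, Dlx5 and Dlx6 have their highest group mean in E14.5 urethra; at E18.5 bladder replicate 2 is the highest bladder point for Msx1, Dlx5 and Dlx6.

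Dlx3, which acts in skin and hair differentiation, was lower in bladder at E18.5 and fell with stage in both tissues. Its level was 1.43, 1.79 and 2.02 CPM in E18.5 bladder, against 8.80, 9.49 and 8.72 CPM in E18.5 urethra. At E14.5 it was 3.57, 13.7, 13.4 and 18 CPM in bladder, against 18.9, 35.0, 21 and 24.6 CPM in urethra. No bladder library reached a urethral library of its stage, and no E18.5 library reached an E14.5 library of its tissue. Between stages in urethra, 19.4% of genes stood wholly above and 19.1% wholly below, 38.5% in all. The order of the groups was E14.5 urethra, E14.5 bladder, E18.5 urethra and E18.5 bladder, and E14.5 bladder and E18.5 urethra overlapped.

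At E18.5, Dlx3 was 5.35-fold lower in bladder (log2 fold change -2.42 ± 0.24, adjusted p = 0.000159). At E14.5 the value was -1.06 ± 0.43 (adjusted p = 0.0744). That comparison passed with DESeq2 (adjusted p = 0.0288), with all 14 libraries in 1 fit (adjusted p = 0.0317) and with the replicate number as a block (adjusted p = 0.0299). It also passed under pan-epithelial scaling (-2.08, adjusted p = 0.00271, with the median of all genes at -1.02) and without bladder replicate 1 (-0.78, adjusted p = 0.0392). It did not pass in the other 7 of 8 fits without 1 library (adjusted p up to 0.183) or with no filter on low counts (adjusted p = 0.0763). Nor did it pass with the mesenchyme score (-1.29, adjusted p = 0.128) or a neural score (-1.34, adjusted p = 0.171) as covariate. Between stages Dlx3 fell in bladder by 2.80 ± 0.44 log2 units (adjusted p = 0.000347; -2.0, adjusted p = 0.297, with the mesenchyme score as covariate) and in urethra by 1.46 ± 0.40 (adjusted p = 0.0143). The urethral call was lost without any 1 of the 3 E18.5 urethral libraries, with adjusted p of 0.0526, 0.0510 and 0.0505 without replicates 1, 2 and 3. The change of the tissue difference with stage was -1.33 ± 0.57 (adjusted p = 0.109), and -1.64 (adjusted p = 0.00507) without bladder replicate 1 of E14.5. The squamous and basal list, which holds keratins of stratified epithelium, was lower in bladder at E18.5 for all 8 of its tested genes. Of all genes tested there, 18.6% were lower. The list summed to 2450 to 2840 CPM in bladder against 6500 to 7400 CPM in urethra. With stage it ran the other way from Dlx3. Of its 8 genes, 4 rose in bladder and 3 in urethra and 0 fell, where 19.9% and 17.3% of all genes rose. A link between the list and Dlx3 was not tested.

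Dlx5, a regulator of bone, jaw and genital tubercle growth, was lower in E14.5 bladder. Its level was 0.0951, 4.38 and 0.393 CPM in E18.5 bladder, against 4.01, 2.47 and 3.63 CPM in E18.5 urethra. At E14.5 it was 0.465, 0.171, 1.47 and 0.672 CPM in bladder, against 2.68, 14.2, 8.55 and 11.2 CPM in urethra. The E14.5 tissues did not overlap, while at E18.5 bladder replicate 2 stood above all urethral libraries and the other 2 bladder libraries below them. The log2 fold change in bladder against urethra was -3.79 ± 0.71 at E14.5 (adjusted p = 0.00362) and -1.09 ± 0.95 at E18.5 (adjusted p = 0.401). Without bladder replicate 2 the E18.5 value was -3.79 (adjusted p = 0.00333), so that library sets the call. E18.5 against E14.5 gave 1.29 ± 0.94 in bladder (adjusted p = 0.296), -1.47 (adjusted p = 0.247) without bladder replicate 2, and -1.44 ± 0.90 in urethra (adjusted p = 0.237). The change of the tissue difference with stage was 2.74 ± 1.30 (adjusted p = 0.146) and -0.03 (adjusted p = 0.987) without that library.

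Dlx6, the partner of Dlx5 in the same gene pair, had few counts, and its top library in E18.5 bladder was that of Dlx5. It had 0, 42 and 0 counts in E18.5 bladder, against 0, 3 and 24 counts in E18.5 urethra. At E14.5 it had 0, 0, 6 and 0 counts in bladder, against 8, 109, 39 and 111 counts in urethra. It did not pass the filter on low counts in the fit of either stage alone; with no filter its log2 fold change in bladder against urethra was -5.54 ± 1.15 at E14.5 (adjusted p = 0.00548) and 0.97 ± 1.13 at E18.5 (adjusted p = 0.587). Over all 14 libraries, E18.5 against E14.5 gave 3.24 ± 1.72 in bladder (adjusted p = 0.153), -3.67 (adjusted p = 0.511) without bladder replicate 2 of E18.5, and -3.31 ± 1.47 in urethra (adjusted p = 0.101). The change with stage was 6.55 ± 2.25 (adjusted p = 0.0518), and -0.37 (adjusted p = 0.854) without that same library.

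Dlx6os1, the noncoding RNA across Dlx6 that acts on Dlx5 and Dlx6 enhancers in mouse forebrain, was high in the same libraries as Dlx6. It had 0, 153 and 2 counts in E18.5 bladder, against 2, 0 and 45 counts in E18.5 urethra, and at E14.5 it had 0, 2, 4 and 0 counts in bladder, against 10, 63, 30 and 76 counts in urethra. At E14.5 it was lower in bladder (log2 fold change -5.01 ± 0.98, adjusted p = 0.00438). In bladder it was called higher at E18.5 (5.14 ± 1.76, adjusted p = 0.0329), and the call rests on replicate 2: without it the value was -0.12 (adjusted p = 0.975). Dlx6os2 and Dlx4os did not exceed 4 counts in any library.

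Some duct and neural markers were high in libraries with high Dlx6 and Dlx6os1, but the markers differed in which libraries they were highest, and in E18.5 urethra their order was not that of Msx1 or Dlx5. Among the E18.5 bladder libraries, Wnt7a, a Wnt ligand of the Mullerian duct, was 0.0951, 9.21 and 0.197 CPM, and Pax8, a factor of nephric and Mullerian duct epithelium, was 0.0951, 3.35 and 0 CPM. In E18.5 urethra Wnt7a was 0.128, 0 and 2.07 CPM and in E14.5 urethra it was 3.12, 19.3, 1.97 and 11.7 CPM. The libraries with the most Wnt7a were replicate 2 in E18.5 bladder, replicate 3 in E18.5 urethra and replicates 2 and 4 in E14.5 urethra. These are also the libraries with the most Dlx6 and Dlx6os1 in each group. Other markers had another order in E14.5 urethra, where Pax8 was 0.968, 7.58, 8.35 and 5.71 CPM, Pax2 1.98, 11.3, 37.4 and 9.21 CPM and Lhx1 0.572, 4.79, 10.8 and 3.15 CPM. All of these 3 were highest in replicate 3, in which Msx1, Dlx5, Dlx6 and Dlx6os1 were below replicates 2 and 4. In E18.5 urethra, replicate 3 had the most Wnt7a and Pax8 (1.2 CPM, against 0.0854 and 0 CPM in replicates 1 and 2) and the least Msx1.

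The whole duct list of 6 genes summed to 135 to 199 CPM in E18.5 bladder, 297 to 449 in E18.5 urethra, 211 to 321 in E14.5 bladder and 234 to 375 in E14.5 urethra, sums that come mostly from Gata3 and Ret, which the urinary epithelium also expresses. At E14.5, 4 of the 6 were lower in bladder (Pax2, Pax8, Lhx1 and Wnt7a), where 20.9% of all genes tested were lower. Lhx1, Pax2 and Wnt7a were at 0 in E14.5 bladder replicate 2, Lhx1 in replicate 3 and Wnt7a in replicate 4. In E18.5 bladder, Lhx1 was at 0 in replicate 1, Pax2, Pax8 and Lhx1 were at 0 in replicate 3, and none of the 6 was at 0 in replicate 2. In E18.5 urethra, Pax2 was at 0 in replicate 1, Pax8 and Wnt7a were at 0 in replicate 2, and none was at 0 in replicate 3. The 6 neural and glial genes summed to 20.9, 99.9 and 21.3 CPM in E18.5 bladder and 36.7, 43.5 and 169 CPM in E18.5 urethra. At E14.5 they summed to 43.0, 18.1, 91.6 and 20.0 CPM in bladder and 52.4, 91.4, 135 and 91.9 CPM in urethra, with 1 of 6 lower in bladder and none at 0 in any library.

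With the mean log2 level of the neural list as a covariate, added after seeing the data, the E14.5 fold change was -2.77 for Msx1 (adjusted p = 0.126), -2.65 for Dlx5 (adjusted p = 0.0493), -1.16 for Dlx2 (adjusted p = 0.181) and 1.1 for Msx2 (adjusted p = 0.0103). With the duct list in its place, also added after seeing the data, the score nearly coincided with tissue at E14.5, and 0 genes were called higher and 3 lower over the whole table, so duct markers and tissue cannot be told apart at that stage. At E18.5 the duct score left Dlx5 at -2.11 (adjusted p = 0.0430), Msx2 and Dlx3 still passing, and Msx1 at -0.28 (adjusted p = 0.691). Msx2 in bladder replicate 2 of E18.5 (67.3 CPM) was close to replicate 3 (65.7 CPM), and Dlx3 (1.79 CPM) lay between the other 2 bladder libraries.

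**Figure D4:**
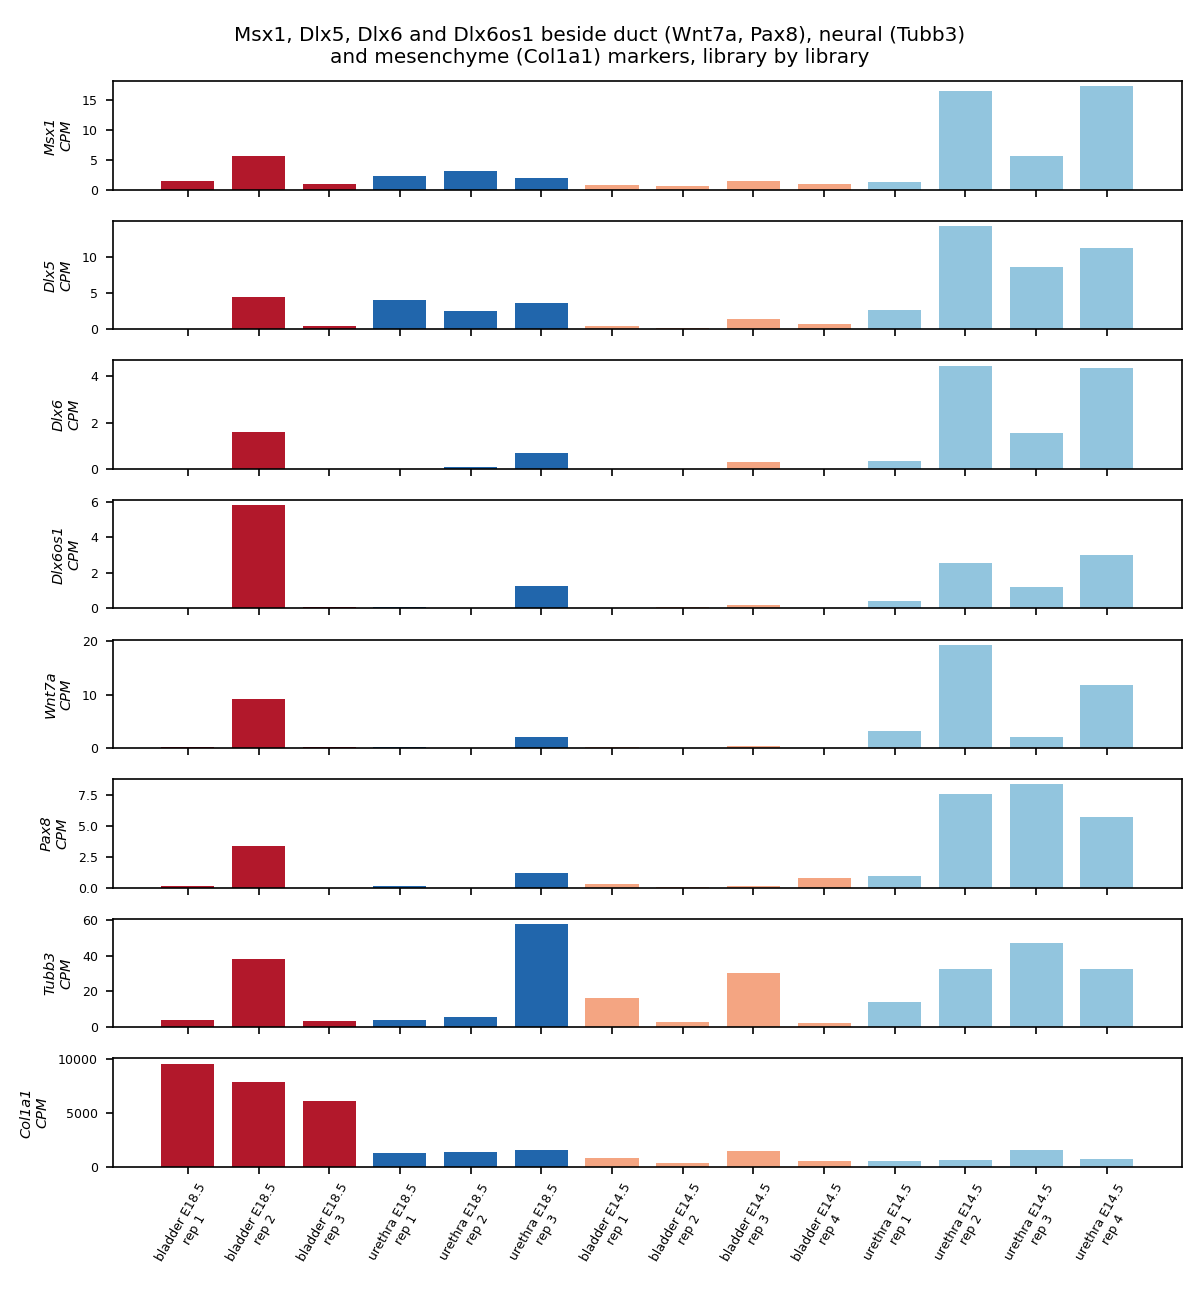
CPM in each library (linear axes from 0) of Msx1, Dlx5, Dlx6 and Dlx6os1 above duct markers Wnt7a and Pax8, the neural marker Tubb3 and the mesenchyme collagen Col1a1. The E18.5 bladder replicate 2 bar stands above replicates 1 and 3 for the 4 upper genes and for Wnt7a, Pax8 and Tubb3, and Col1a1 is high in all 3 E18.5 bladder libraries.

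Mesenchymal RNA went with tissue at E18.5 and, in bladder, with stage. At E18.5, 14 of 14 mesenchyme genes were higher in bladder, where 19.3% of all genes tested were higher. At E14.5, 2 of 14 were lower in bladder, where 20.9% of all genes tested were lower, and the sums of the 2 tissues overlapped. With the mesenchyme score as covariate at E18.5, 0 genes were called higher and 2 lower over the whole table, so mesenchymal RNA and tissue cannot be told apart at that stage. At E14.5, the same covariate gave -2.96 for Msx1 (adjusted p = 0.0588) and -1.40 for Dlx2 (adjusted p = 0.0845), and the calls of Msx2 and Dlx5 held. Between stages in bladder, 13 of 14 mesenchyme genes rose, where 19.9% of all genes rose. The sum of the 14 was 21400 to 33200 CPM at E18.5, against 1020 to 4690 CPM at E14.5. With the covariate there, 75 genes were called higher and 238 lower over the whole table, the calls of Msx2 and Dlx3 were lost, and Dlx1 was called lower (-6.71, adjusted p = 0.03). The changes of the tissue difference with stage were lost for Msx1 (1.9, adjusted p = 0.974) and Msx2 (0.03, adjusted p = 1).

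Dlx1, Dlx2 and Dlx4 were near the limit of detection. Dlx2 had 4, 7 and 2 counts in E18.5 bladder, against 0, 4 and 20 in E18.5 urethra, and 4, 2, 16 and 2 counts in E14.5 bladder, against 16, 20, 61 and 47 in E14.5 urethra. Dlx1, its neighbour, had 2 counts in each E18.5 bladder library, against 0, 4 and 6 in E18.5 urethra, and 6, 2, 16 and 4 in E14.5 bladder, against 4, 9, 24 and 22 in E14.5 urethra. Both were highest in replicate 3 within E14.5 bladder and within E14.5 urethra. Dlx4 had 4 to 10 counts in E18.5 bladder, 6 to 12 in E18.5 urethra, 2 to 22 in E14.5 bladder and 2 to 23 in E14.5 urethra. Dlx1 and Dlx2 act together in the forebrain and the first pharyngeal arch.

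Dlx2 was lower in E14.5 bladder (log2 fold change -2.69 ± 0.83, adjusted p = 0.0294). The call was lost in 5 of 8 fits without 1 library, with adjusted p of 0.0687, 0.0647 and 0.0763 without bladder replicates 1, 2 and 4, and 0.0728 and 0.0699 without urethral replicates 3 and 4. In urethra, Dlx1 fell with stage (-2.49 ± 0.90, adjusted p = 0.0490) and Dlx2 gave -2.59 ± 0.96 (adjusted p = 0.0546). Dlx1 had enough counts to be tested in 5 of the 7 fits without 1 library, and its call held in 1 of them. The call was lost without urethral replicate 2 of E14.5 (adjusted p = 0.0617) and without urethral replicates 1, 2 or 3 of E18.5 (0.137, 0.121 and 0.0698). It was also lost with no filter on low counts (adjusted p = 0.068). The Dlx2 value passed without urethral replicate 1 of E14.5 (adjusted p = 0.0376) or replicate 3 of E18.5 (-4.32, adjusted p = 0.0217). Dlx4 did not pass in any of the comparisons it was tested in, with -0.22 ± 0.76 at E14.5 (adjusted p = 0.830). Low counts were mostly even, 64.4% to 69.0% of counts between 1 and 20 in each library. Whether the 2 mates of a read pair were counted separately is not given in the sources used here, so such counts hold fewer independent fragments than they show if they were.

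The BMP pathway, whose ligands induce Msx genes in other tissues, was described by a list of 28 genes. At E14.5, 4 genes were higher and 14 lower in bladder, where 23.1% of all genes tested were higher and 20.9% lower, with a median log2 fold change of -0.84 against -0.03 over all genes tested. Bambi, a decoy receptor, was lower (-1.71 ± 0.15, adjusted p = 0.00031), as was the receptor Acvr2b (-1.16 ± 0.12, adjusted p = 0.000495), while Id1, a target of BMP signalling, was higher (1.09 ± 0.11, adjusted p = 0.000465). By role, 2 of 7 ligands were higher and 2 lower, 5 of 7 antagonists were lower and none higher, 3 of 4 effectors were lower, and 1 of 4 response genes was higher and 1 lower. Id1 averaged 349 CPM in E14.5 bladder and 160 CPM in E14.5 urethra, the direction of Msx2 at that stage. At E18.5 it ran the other way from Msx2, with means of 194 CPM in bladder and 259 CPM in urethra.

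At E18.5, 5 of the 28 BMP genes were higher and 7 lower in bladder, with a median of -0.22, where 19.3% of all genes tested were higher and 18.6% lower, so the count is near the background. The ligands Bmp5 (3.20 ± 0.20, adjusted p = 2.27e-05) and Bmp3 (2.73 ± 0.24, adjusted p = 9.67e-05) were higher in bladder, and the response gene Id2 was lower (-1.07 ± 0.09, adjusted p = 0.000103). Here 5 of 7 ligands were higher, 1 lower, and 3 of 4 response genes were lower. These are the libraries in which all 14 mesenchyme genes were higher in bladder, and mesenchymal RNA and tissue cannot be told apart in these values. Between stages, Bmp6 rose in bladder (4.31 ± 0.46, adjusted p = 2.51e-05) while Acvr2b (-1.09 ± 0.14, adjusted p = 9.43e-05) and Id1 (-0.84 ± 0.12, adjusted p = 0.00019) fell there. In all 9 genes rose and 6 fell in bladder, where 19.9% of all genes rose and 20.4% fell, and where 13 of 14 mesenchyme genes rose; stage and mesenchymal RNA cannot be told apart in these values. In urethra 5 rose and 6 fell, where 17.3% of all genes rose and 15.7% fell, and Id2 was higher at E18.5 (0.97 ± 0.13, adjusted p = 0.000261). The tissue difference changed with stage for 12 of 28, 8 up and 4 down, where 12.2% of all genes went up and 10.7% down. Without bladder replicate 2 of E18.5, 5 of the 28 went up and 2 down.

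**Figure D5:**
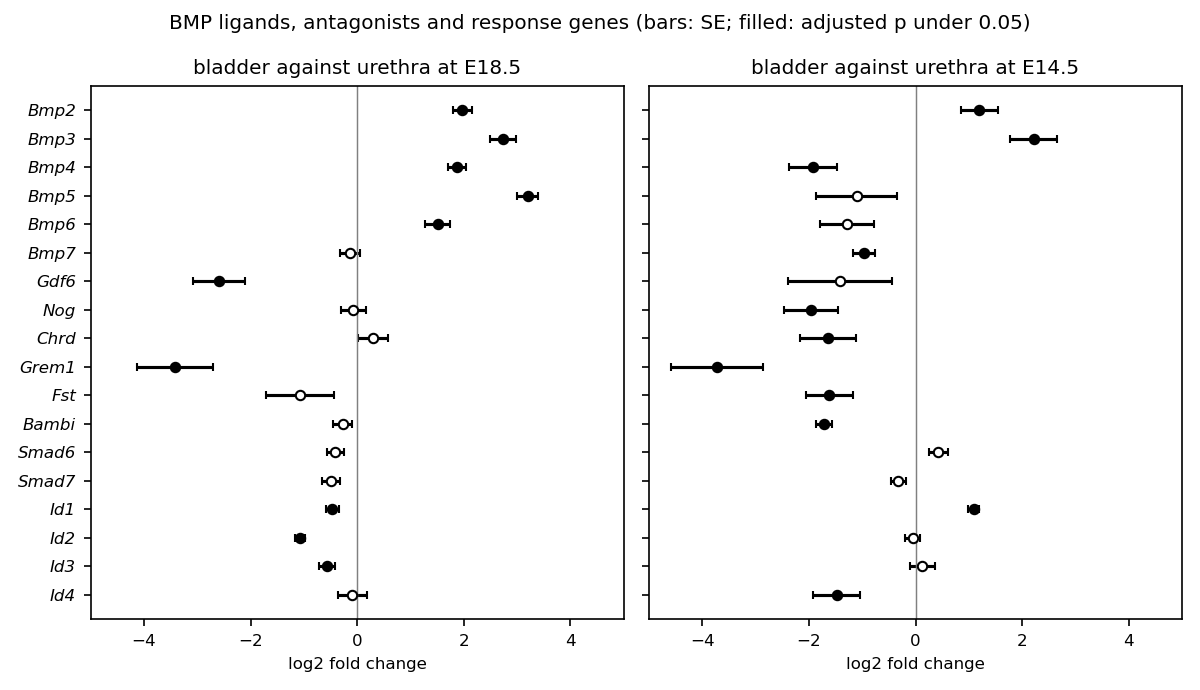
Log2 fold changes of BMP ligands, antagonists and response genes in bladder against urethra with standard errors, at E18.5 (left) and E14.5 (right). Bmp2 and Bmp3 lie right of 0 with filled points at both stages, whereas Id1 is right of 0 at E14.5 and left of 0 at E18.5.

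Other homeobox genes of the same class (31, mostly not expressed) and 18 genes reported as regulators, partners or targets of Msx and Dlx genes in other tissues gave further contrasts. Of all genes tested, 23.1% were higher and 20.9% lower in bladder at E14.5, and 19.3% and 18.6% at E18.5. Counts over so few genes are not results about these lists beside that background. At E14.5, 9 of the class were tested and 1 was higher and 3 lower in bladder, led by Hhex (2.04 ± 0.28, adjusted p = 0.00105) and, on the urethral side, Barx2 (-3.91 ± 0.64, adjusted p = 0.00216) and Vax1 (-3.94 ± 0.95, adjusted p = 0.011). At E18.5, 8 were tested with 2 higher and 3 lower, led by Barx2 (-4.03 ± 0.15, adjusted p = 5.4e-06). Of the partners, 16 were tested at each stage. At E14.5, 1 was higher and 7 lower in bladder, with Tfap2a (-5.31 ± 0.35, adjusted p = 0.000262), Sp8 (-5.86 ± 0.62, adjusted p = 0.000467) and Pax9 (-6.98 ± 0.80, adjusted p = 0.000591) the strongest. At E18.5, 3 were higher and 7 lower, again led by Tfap2a, Sp8 and Pax9, whose mean was 0.0328 CPM in bladder and 32.5 CPM in urethra.

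The genes whose profile over the 14 libraries was closest to each of the 4 higher members were found by the root mean square difference of centred log2 CPM among 15123 genes. For Msx2 they were Hic2, Cyb5b and Fut4 (0.24, 0.25 and 0.26 log2 units). For Msx1 they were Tmem132c, Camkv and Gfra2 (0.54, 0.67 and 0.69), for Dlx3 Kcnip4, Isl2 and Rimklb (0.37, 0.41 and 0.46), and for Dlx5 Scx, Th and Ptpn5 (0.67, 0.78 and 0.79). The median difference over all genes searched was 0.81 for Msx2, 1.5 for Msx1, 1.52 for Dlx3 and 2.03 for Dlx5. Among the members themselves the closest pair was Dlx1 and Dlx2 (0.70), and Msx1 and Msx2 differed by 1.9. Dlx1 and Dlx2 had few counts, and the prior count of 2 holds low log2 levels near a common floor. The part of that floor in their small difference was not tested. Library depth and cell content are shared by all points.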

How the data were processed

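RNA-seq of bladder and urethral epithelium gave 14 libraries, and the authors deposited raw counts per gene symbol in 1 table for each stage. Per the submitters' processing notes, HISAT2 2.2.1, SAMtools 1.9, bcl2fastq and the genome GRCm38 were used. The sources used here name no counting tool, strand setting or annotation release. The design text gives 4 litters at E14.5 and the extraction notes 3 for each sample type; 4 were taken. Gene length comes from the deposited tables. CPM were scaled by TMM over the 14 libraries, and log2 CPM took a prior count of 2. Tests were edgeR 4.0.16 quasi-likelihood fits in R 4.3.3 after filterByExpr, tissue within a stage and stage and interaction over 14 libraries, with adjusted p under 0.05 as the threshold. Alternatives used DESeq2 1.42.0, other scaling, filters, covariates, a replicate block and leaving out each library. Fits were tested on simulated data. The genes named from context lists are the 3 of smallest adjusted p for each list and comparison; all members are named. The members and lists were chosen with earlier results of these data known. An antisense transcript of Msx1 was not analysed here, and 1 noncoding gene first listed as a neighbour was dropped because it lies on another chromosome.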

Additional observations from a re-analysis of the deposited data

Results flagged for a closer look

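Dlx2 in E14.5 bladder replicate 3 stood at 0.736 CPM, against 0.0569 to 0.124 CPM in the other 3 libraries of that group, and Dlx6 in the same library stood at 0.276 CPM, against 0 in the other 3. The Dlx2 gap passed Dixon's 95% limit for a group of 4, which chance passes in about 1 group in 20, and 16 groups were examined. With the other 3 libraries tied at 0, any count of Dlx6 passes that limit whatever its size, here 6 counts, so its gap carries no such rate. That library also had the highest neural list sum of its group (91.6 CPM, against 18.1 to 43.0). The tissue difference of Msx1 changed with stage by 3.59 log2 units (adjusted p = 0.0279) and that of Msx2 by -0.73 (adjusted p = 0.0482), both by a test of the difference itself in edgeR. The Msx1 value without bladder replicate 2 of E18.5 was 2.43 (adjusted p = 0.106), and with the replicate number as a block it was 2.77 (adjusted p = 0.0753). With the mesenchyme score as covariate in edgeR, both changes with stage were lost (1.9, adjusted p = 0.974, for Msx1 and 0.03 for Msx2). Over the whole table, 11 genes were then called higher and 25 lower. The part of neural or duct RNA in these values, and of mesenchymal RNA in the Dlx2 and Dlx6 gaps, was not tested.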

How the results depend on the processing

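Msx2 and Dlx3 in the E18.5 tissue comparison kept direction and side of the threshold in every alternative except the mesenchyme covariate (1.12, adjusted p = 0.529, and -1.51, adjusted p = 0.701), and Msx1 and Dlx5 at E14.5 kept theirs in each fit without 1 library. The causes of the changes given next were not tested. With DESeq2 size factors, 0 members fell in the interaction, beside 1882 of all genes. Without a filter on low counts, 1 member fell in urethra (2287 of all genes) and 2 rose in the interaction (2002). With at least 1 CPM, 1 fell in urethra (2611), 2 rose in the interaction (2244) and 0 fell there (1805). DESeq2 gave 4 falling members in urethra (3251 of all genes). All 14 libraries in 1 fit gave 5 members lower in bladder at E14.5 (3975). The 7 urethral libraries alone gave 1 falling member (2421). In the main fits, 2875 genes fell in urethra, 3491 were lower in E14.5 bladder, and 2233 rose and 1950 fell in the interaction.

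With pan-epithelial scaling the all-gene median became -1.02 and 0.39 (tissue at E14.5 and E18.5), 0.53 and -0.84 (stage in bladder and urethra) and 1.36 (interaction). Genes called higher and lower were then 517 and 11415 for tissue at E14.5, 5780 and 1317 for tissue at E18.5, 5742 and 302 for stage in bladder, 983 and 9840 in urethra, and 12881 and 273 in the interaction. Of the members, 0 were higher in E14.5 bladder, 1 rose and 1 fell in bladder, 7 fell in urethra, and 4 rose and 0 fell in the interaction. Directions turned for Dlx2 in bladder (0.21) and, in the interaction, for Msx2 (0.65), Dlx3 (0.06) and Dlx4 (1.04).

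The mesenchyme score as covariate gave 2283 genes higher and 2055 lower at E14.5 with 1 member lower, and 0 higher and 2 lower at E18.5 with 0 members either way. For stage in bladder it gave 75 and 238 genes, with 1 member falling (Dlx1, while Msx2 and Dlx3 lost their calls). For stage in urethra it gave 3546 and 3467 genes, with 5 members falling (Msx1, Dlx1, Dlx2, Dlx3 and Dlx6). The interaction had 11 and 25 genes with 0 members. It turned Msx1 at E18.5 (-2.44). In bladder it turned Msx1 (-0.28), Dlx4 (1.35), Dlx5 (-2.09) and Dlx6 (-5.03). In the interaction it turned Msx2 (0.03), Dlx1 (-3.86), Dlx2 (-2.71), Dlx4 (1.61), Dlx5 (-0.41) and Dlx6 (-0.58). The neural score gave 1705 genes higher and 1489 lower at E14.5, with 1 member lower. The duct score gave 0 higher and 3 lower genes at E14.5 with 0 members either way and Msx1 at 0.09. At E18.5 it gave 3359 genes higher and 3371 lower, with 2 members lower and Msx1 at -0.28.

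Same-numbered bladder and urethral libraries deviated together with correlations of 0.15, 0.13, 0.39 and -0.10 (E14.5), and of 0.14, -0.15 and -0.19 (E18.5). Differently numbered libraries of a stage gave -0.39 to 0.36. The numbers were not taken as pairs in the main fits, but such correlations cannot show that the libraries are unpaired. Bladder and urethral libraries of a stage may share litters, and the sample titles name no litter. With the replicate number as a block, Msx1 at E18.5 was -0.25, Dlx3 at E14.5 -1.22 (adjusted p = 0.0299) and Msx1 in the interaction 2.77 (adjusted p = 0.0753). In that interaction 0 members rose, beside 2242 of all genes.

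Without 1 library at a time, members lower in E18.5 bladder numbered 1 to 2, members falling in urethra 0 to 4, and members rising and falling in the interaction 0 to 2 and 0 to 1. Of all genes, 2268 to 3350 were lower in E18.5 bladder and 1693 to 3290 were lower with stage in urethra. In the interaction, 1515 to 2691 genes rose and 1122 to 3006 fell. Fold changes that changed sign had ranges of -0.65 to 0.45 (Dlx4 at E14.5), -0.99 to 0.53 (Msx1 at E18.5), -0.64 to 1.15 (Dlx2 in bladder), -1.47 to 1.93 (Dlx5 in bladder), -3.67 to 6.94 (Dlx6 in bladder) and -0.89 to 0.11 (Dlx4 in urethra). In the interaction they were -0.76 to 0.37 (Dlx4), -0.03 to 3.38 (Dlx5) and -0.37 to 10.25 (Dlx6). Groups of 3 or 4 libraries, and few even-valued counts for Dlx1, Dlx2, Dlx4 and Dlx6, limit the precision.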
